A study of Mus musculus with 14 samples.

Results

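The genes described here are 55 genes of the cell cycle, measured by RNA sequencing of mouse mast cells that were sorted from ear skin in small pools. They were taken by name, from a list that uses no measured value in its rule but was drawn up with earlier results of these data known: 15 genes of DNA replication (the S phase genes), 26 genes of mitosis, 10 regulators of the G1 phase, 3 inhibitors of cyclin-dependent kinases and Stmn1, which binds tubulin. All 55 were found among the 55487 genes of the count table, and all 55 passed the filter on low counts that left 21014 genes. The 14 libraries fell into 3 groups: resident mast cells of untreated mice (libraries 1 to 5), resident mast cells of mice treated with MC903 (libraries 6 to 10), and cells from MC903-treated mice that carry the label bone marrow mast cells (libraries 11, 13, 14 and 15). MC903 is calcipotriol, a vitamin D analogue that is applied to the skin to produce a dermatitis like atopic dermatitis. The extraction protocol speaks of resident cells and of integrin β7+ cells taken from both ears, so the third group stands for the integrin β7+ cells only if the 2 labels mean the same cells, which the labels do not state; it is called bone marrow cells below, as labelled. A pool held at most 100 cells. The labels gave no strain, genotype, sex, age, dose or day of treatment, and named no animal, so the p-values measure only the spread between these libraries.

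A dividing cell passes through G1, copies its DNA in S phase and separates the copies in mitosis. In G1, D-type cyclins with Cdk4 or Cdk6 phosphorylate the retinoblastoma protein, which frees E2F transcription factors to switch on replication genes, and the inhibitor p21 (Cdkn1a) opposes the kinases; later the kinase Cdk1 with B-type cyclins drives mitosis, whose genes are switched on by the B-Myb and FoxM1 proteins. Mature mast cells of the skin are long-lived and divide slowly, whereas mast cell progenitors enter tissues from the blood and can divide there.

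Library totals ranged from 13068078 to 31781926 counts, and 3 counts, used here as the floor of detection, equalled 0.104 to 0.193 CPM. CPM are counts scaled to a common library total with the TMM factor, and below they are always given in library order. All 8 core mast cell markers were above the floor in every library, with a summed level of 71476 to 145124 CPM. Library 15 stood apart. It held macrophage and dendritic cell genes at a sum of 10121 CPM, with 0 of the 7 at the floor (Lyz2 4817 CPM, C1qb 2252 CPM), against 52.9 to 336 CPM in the other libraries, which had 1 to 5 of the 7 at the floor. T cell markers summed to 0.0748 to 5.93 CPM in untreated, 0.462 to 43.8 CPM in MC903 resident and 4.09 to 83.8 CPM in bone marrow libraries, and keratinocyte, fibroblast and neutrophil markers to at most 85.2 CPM anywhere. The sum of the 3 basophil markers was lowest in library 15 (269.7 CPM) and highest in library 11 (1506 CPM), against 433 to 751 CPM elsewhere, with at most 1 of the 3 at the floor. Most of the sum was Cd200r3 (223 to 709.6 CPM) except in library 11, where Mcpt8 was at 976 CPM, against 46.5 to 205 CPM in libraries 13, 14 and 15 and 3.15 to 57.0 CPM in resident cells; library 11 also had the highest mitosis mean below. Libraries 7, 8 and 15 had 34560, 35246 and 32814 genes with a count, against 16025 to 28790 in the others. Mitochondrial genes took 1.22% to 1.70% of counts in untreated libraries and 2.14% to 4.24% in both MC903 groups. The part of these features in the results below was not tested, and calls lost without library 15 or without libraries 7, 8 and 15 are given beside the genes concerned.

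Replication genes are known to be controlled through E2F sites in their promoters, and mitosis genes through cell cycle homology regions (CHR) with CCAAT boxes, so promoters of both kinds are shown first. RefSeq (GRCm38.p6) promoter windows, each 300 bases from 250 before to 50 after a gene's start, were matched by symbol for 44 of the 55 genes, in 51 windows. Both strands were searched for E2F-type letters (TTTCGCGC, TTTGGCGC, TTTCCCGC or TTTGCCGC), for the CHR letters TTTGAA and for CCAAT; the E2F patterns can overlap each other on opposite strands. E2F-type letters stood in 7 of 15 S phase windows (46.7%) and 1 of 22 mitosis windows (4.55%), against 2.26% of all 32851 promoters. CHR letters stood in 2 of 15 S phase windows (13.3%) and 16 of 22 mitosis windows (72.7%), against 17.9% of all promoters. CCAAT was in 80% and 86.4% of the S phase and mitosis windows, against 37.4% of all. The 9 windows of G1 regulators held E2F-type letters in 2 and CHR letters in 1, and the 5 windows of the inhibitors held neither. A match describes letters in these windows and is not shown to be a bound site.

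The 250 bases before the start are printed 5′ to 3′ on the gene's own strand, with every match in capitals. Mcm5 (chr8:75109259-75109508, + strand), Mcm6 (chr1:128359706-128359955, − strand) and Mcm7 (chr5:138171884-138172133, − strand) encode subunits of the replication helicase and are among the genes that were called in 2 comparisons below. Top2a (chr11:99024190-99024439, − strand), Mki67 (chr7:135716380-135716629, − strand) and Prc1 (chr7:80294226-80294475, + strand) are shown as mitosis genes.
Mcm5: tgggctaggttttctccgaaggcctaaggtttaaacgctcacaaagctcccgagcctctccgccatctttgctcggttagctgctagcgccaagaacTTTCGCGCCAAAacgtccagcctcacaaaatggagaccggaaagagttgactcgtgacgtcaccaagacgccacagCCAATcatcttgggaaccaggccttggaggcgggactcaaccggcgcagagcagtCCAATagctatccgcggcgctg
Mcm6: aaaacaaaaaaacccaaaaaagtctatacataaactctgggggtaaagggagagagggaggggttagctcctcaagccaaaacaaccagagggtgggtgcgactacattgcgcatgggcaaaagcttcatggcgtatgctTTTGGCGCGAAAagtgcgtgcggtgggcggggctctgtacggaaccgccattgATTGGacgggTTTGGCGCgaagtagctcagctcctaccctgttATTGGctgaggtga
Mcm7: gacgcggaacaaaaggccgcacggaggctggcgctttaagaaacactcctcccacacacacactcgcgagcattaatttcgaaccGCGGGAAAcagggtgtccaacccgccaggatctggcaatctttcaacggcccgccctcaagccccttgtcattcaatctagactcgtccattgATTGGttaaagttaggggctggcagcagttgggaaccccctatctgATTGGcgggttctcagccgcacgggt
Top2a: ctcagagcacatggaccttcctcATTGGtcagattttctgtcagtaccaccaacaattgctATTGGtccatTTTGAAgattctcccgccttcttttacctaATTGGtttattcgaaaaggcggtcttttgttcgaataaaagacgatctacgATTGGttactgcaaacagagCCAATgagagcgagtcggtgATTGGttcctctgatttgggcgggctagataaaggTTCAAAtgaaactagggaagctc
Mki67: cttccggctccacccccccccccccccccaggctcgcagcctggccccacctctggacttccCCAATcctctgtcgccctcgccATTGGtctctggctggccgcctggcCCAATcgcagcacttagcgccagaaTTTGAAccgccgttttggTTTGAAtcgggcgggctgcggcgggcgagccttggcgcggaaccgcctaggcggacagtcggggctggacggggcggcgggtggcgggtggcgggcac
Prc1: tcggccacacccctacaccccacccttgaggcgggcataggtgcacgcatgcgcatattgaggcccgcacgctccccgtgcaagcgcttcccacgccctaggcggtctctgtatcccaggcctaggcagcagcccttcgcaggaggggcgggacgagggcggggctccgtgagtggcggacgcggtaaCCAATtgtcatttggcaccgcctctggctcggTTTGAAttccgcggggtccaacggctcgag

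The Mcm5, Mcm6 and Mcm7 stretches held 2, 3 and 1 E2F-type matches and no CHR match, whereas those of Top2a, Mki67 and Prc1 held CHR letters and no E2F-type match. The other Mcm7 window (chr5:138171217-138171516) is not printed and held 0 E2F-type and 0 CHR matches. In Mcm5 and in Mcm6, 2 of the E2F-type matches lie on opposite strands and share their middle letters.

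Both replication and mitosis genes were at their lowest level in untreated resident cells and at their highest in bone marrow cells, but the 2 sets behaved differently from library to library. The mean over the 15 S phase genes was 3.49, 2.99, 2.26, 3.16 and 3.83 log2 CPM in the untreated libraries, 4.36, 4.55, 4.37, 5.17 and 5.15 in the MC903 resident libraries and 6.12, 5.49, 6.17 and 5.37 in the bone marrow libraries. The 3 groups did not overlap, and their means were 3.15 ± 0.590, 4.72 ± 0.407 and 5.79 ± 0.414 log2 CPM (SD). The sum of the same 15 genes, in which the most abundant weigh most, overlapped between the resident groups: it was 377 to 688 CPM in untreated, 404 to 828 CPM in MC903 resident and 841 to 1516 CPM in bone marrow libraries. The mean over the 26 mitosis genes was 3.78, 0.27, 0.21, 0.48 and 1.89 log2 CPM in the untreated libraries, 3.96, 4.14, 4.06, 5.01 and 0.46 in the MC903 resident libraries and 5.84, 3.02, 5.66 and 4.68 in the bone marrow libraries. Here the groups overlapped: library 1 lay just below 4 of the MC903 resident libraries, and MC903 resident library 10 was as low as untreated libraries 2, 3 and 4.

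**Figure D1:**
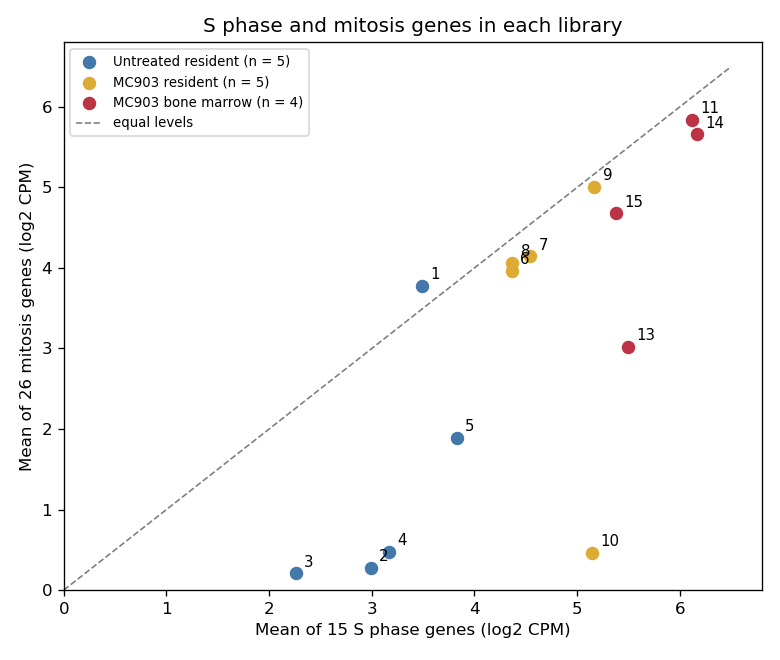
Mean level of 15 S phase genes (x axis, log2 CPM) against mean level of 26 mitosis genes (y axis, log2 CPM) in each of the 14 libraries, numbered and marked by group. The groups separate along the x axis, while library 10 lies at 0.46 and library 1 at 3.78 on the y axis.

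The number of mitosis genes above 10 CPM, of 26, was 18, 2, 3, 3 and 10 in the untreated libraries, 18, 20, 18, 25 and 5 in the MC903 resident libraries and 25, 17, 25 and 21 in the bone marrow libraries. For the 15 S phase genes it was 10, 7, 6, 8 and 11, then 12, 12, 12, 15 and 14, then 15, 12, 14 and 15. Library 10 therefore had 14 of 15 replication genes above 10 CPM with 5 of 26 mitosis genes, and 5 mitosis genes at the floor. The S phase mean minus the mitosis mean was 1.82 ± 1.23 (SD, n = 5) in untreated, 1.19 ± 1.95 (n = 5) in MC903 resident and 0.99 ± 1.004 (n = 4) in bone marrow libraries, on the log2 scale. This difference contains the genes' lengths, so only its change between libraries can be read, and over all libraries its means differed by less than the spread within the groups. Within groups it was -0.29 in library 1 against 1.94 to 2.72 in the other untreated libraries, 4.68 in library 10 against 0.16 to 0.40 in the other MC903 resident libraries, and 2.48 in library 13 against 0.28 to 0.70 in the other bone marrow libraries. In each group 1 library set most of that spread. The untreated mean was 2.35 ± 0.411 (SD) without library 1, the MC903 resident mean 0.32 ± 0.115 without library 10 and the bone marrow mean 0.50 ± 0.207 without library 13; these libraries were singled out by their values, so no test was made without them. In bulk libraries of few cells, fewer dividing cells and less of these transcripts per dividing cell cannot be told apart.

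**Figure D2:**
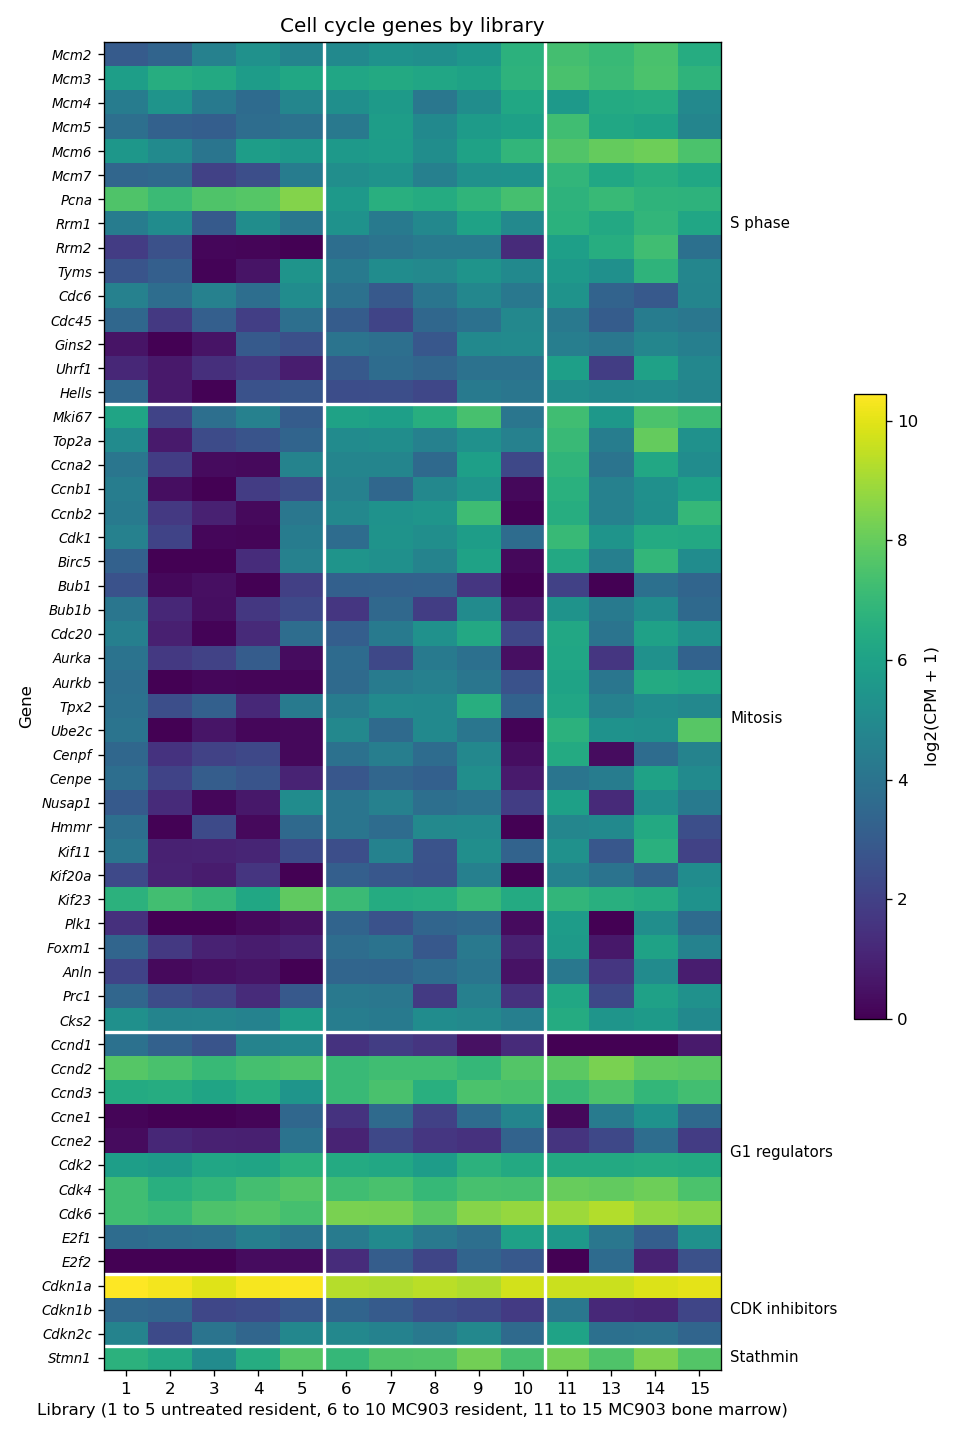
Level of each of the 55 genes (rows, grouped by role) in each of the 14 libraries (columns, grouped by label), as log2 CPM with a constant added to the CPM. The colour scale runs from dark (low) to bright (high). Most mitosis rows are dark in untreated libraries 2 to 4 and in MC903 resident library 10, while most replication rows brighten from left to right and Pcna does not.

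The 3 comparisons were tested with edgeR's quasi-likelihood test over all 21014 genes, and a gene was called at a Benjamini-Hochberg adjusted p under 0.05; below, called and not called refer to this fit unless another tool or setting is named. MC903 resident against untreated resident cells called 7 of the 55 genes (12.7%), against 2.25% of all genes tested. Mcm5, Mcm7, Uhrf1, Ccnd3 and Cdk6 rose, beside 0.571% of all genes, and Pcna and Cdkn1a fell, beside 1.68%. DESeq2 size factors in place of TMM called 5 higher and 1 lower. Over all genes the main fit, with TMM from all genes tested, called 120 higher and 353 lower. The 3 other scalings called 186 to 251 higher and 265 to 314 lower, DESeq2 size factors among them with 207 and 294. Bone marrow against untreated resident cells called 17 (30.9%), against 6.87% of all genes. Of these, 16 rose, beside 3.49% of all genes, and Ccnd1 fell, beside 3.37%. Bone marrow against MC903 resident cells called 2 (3.64%), Mcm3 and Mcm6, both higher, against 2.27% of all genes (1.32% higher), which is close to the background. Over all genes this was 277 higher and 200 lower, a balance that turned under the 3 other scalings, with 161 to 178 higher and 242 to 258 lower. The count of the 55 genes called there was 6 without library 15 (5 higher and 1 lower, beside 704 of all genes). With limma's voomWithQualityWeights it was 13 (12 higher and 1 lower, beside 2073 of all genes). As further background, DESeq2's Wald test called 3.14%, 2.28% and 7.52% of the genes it tested higher and 2.47%, 6.52% and 8.59% lower in MC903 resident against untreated, bone marrow against MC903 resident and bone marrow against untreated cells. For limma these shares were 3.14%, 3.23% and 5.18% higher and 3.32%, 6.63% and 5.35% lower. The comparisons share groups: each group enters 2 of them, so their calls are not independent.

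The median log2 fold change of the 55 genes was 1.30, 0.88 and 2.49 in MC903 resident against untreated, bone marrow against MC903 resident and bone marrow against untreated cells, beside 0.24, -0.28 and -0.14 over all genes tested. The latter 2 rest in part on library 15, without which they were -0.84 and -0.62. Positive log2 fold changes made up 83.6%, 90.9% and 89.1% of the 55, against 60.0%, 40.7% and 45.1% of all genes. For 43 of the 55 genes the mean CPM ran in the order untreated, MC903 resident, bone marrow, among them 13 of 15 S phase genes and 24 of 26 mitosis genes. The share of all genes tested whose means ran in this order was not computed. Libraries of the 2 groups did not overlap for 6 higher and 2 lower genes in MC903 resident against untreated cells (all genes 2.17% and 3.16%), for 8 higher and 0 lower in bone marrow against MC903 resident cells (3.97% and 4.32%), and for 21 higher and 2 lower in bone marrow against untreated cells (5.13% and 5.28%).

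**Figure D3:**
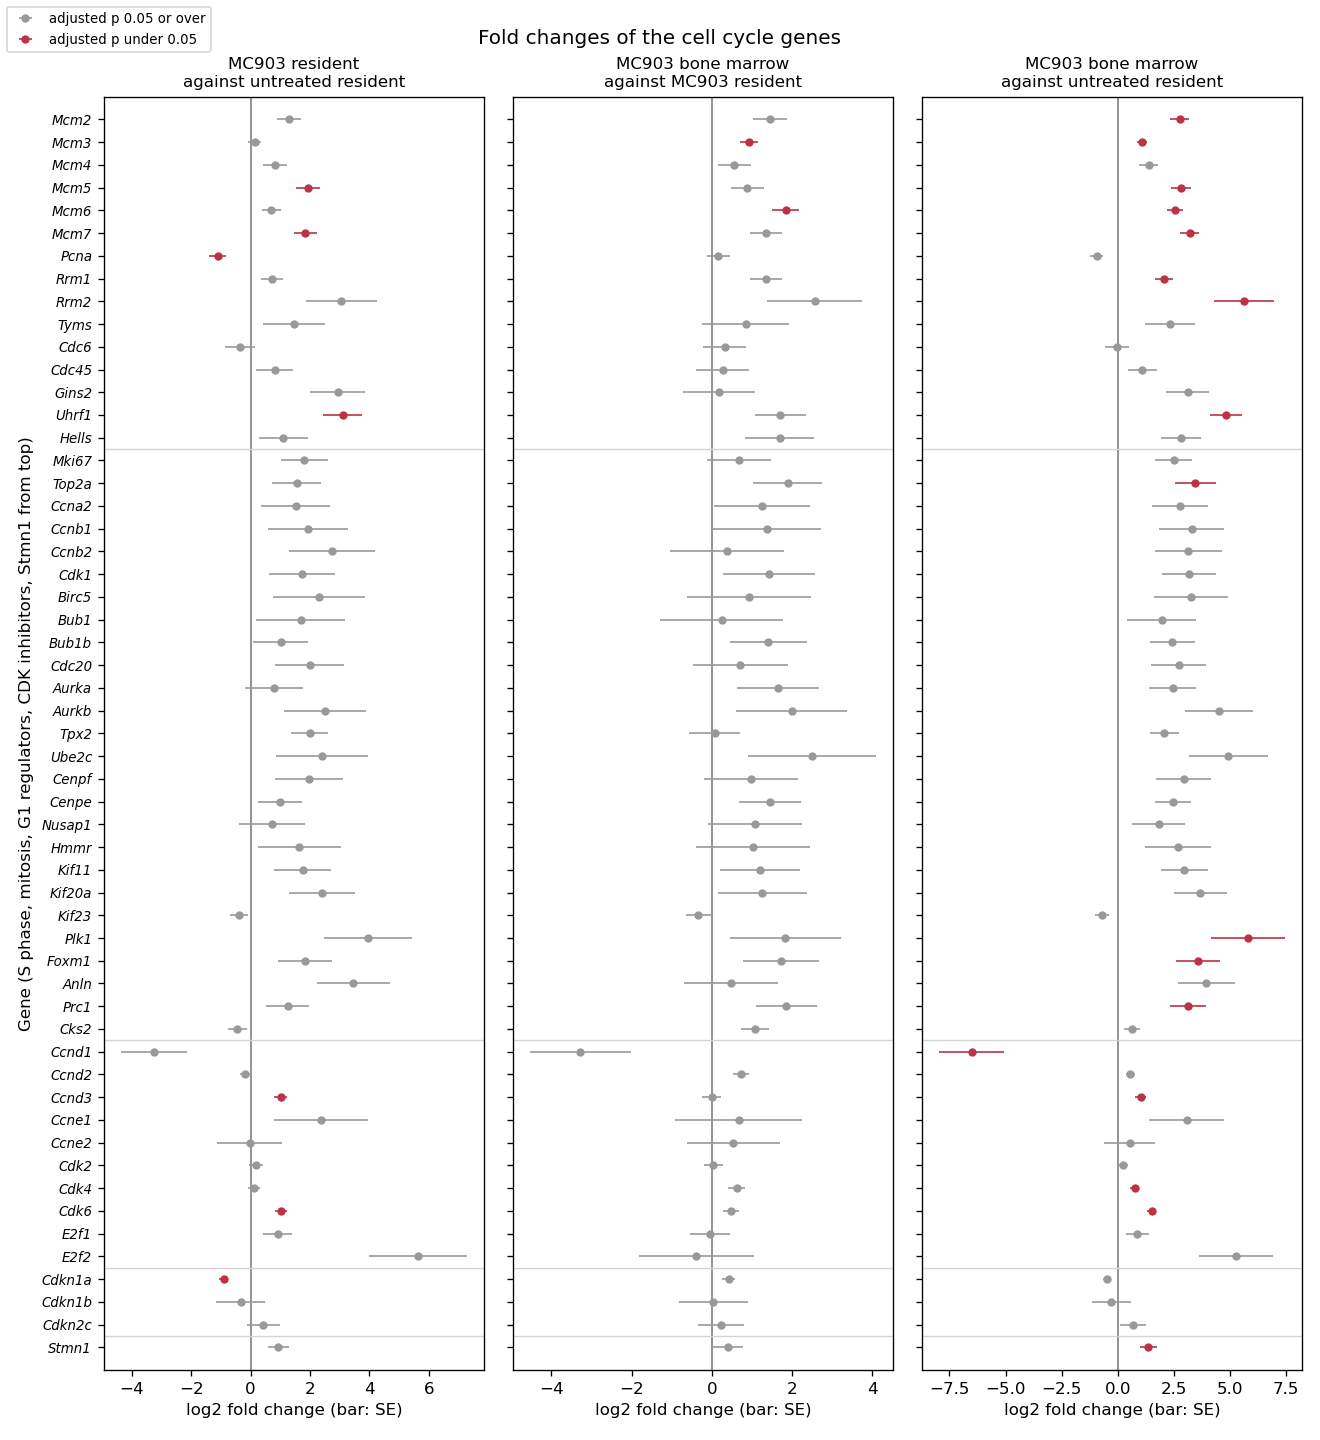
Log2 fold change with its SE (x axis) for each of the 55 genes (y axis, by role) in the 3 comparisons, 1 panel each, with called genes marked. Each panel has its own x scale; most points lie right of 0, and the bars of most mitosis genes are wider than those of the Mcm genes and kinases.

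Of the 15 S phase genes, 4 were called in MC903 resident against untreated cells (3 higher, 1 lower), 2 in bone marrow against MC903 resident cells and 8, all higher, in bone marrow against untreated cells, where the shares over all genes were 2.25%, 2.27% and 6.87%. The replicative helicase MCM2-7 accounted for most of these: its 6 subunits form a ring that is loaded on DNA in G1 and unwinds it in S phase. Their summed level was 153, 193, 149.6, 177 and 209 CPM in the untreated libraries, 238, 321, 210.3, 297 and 497 CPM in the MC903 resident libraries and 841, 753, 882 and 505 CPM in the bone marrow libraries. Every MC903 resident library was above every untreated library, and every bone marrow library above every MC903 resident library, though libraries 5 and 8, and libraries 10 and 15, lay close to each other.

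Mcm7 (ENSMUSG00000029730.16, GRCm38 chr5:138164583-138172422, − strand) had 10.05, 11.03, 3.03, 4.73 and 20.1 CPM in the untreated libraries and 35.3, 40.5, 22.3, 38.2 and 38.8 CPM in the MC903 resident libraries. Mcm7 was at 116, 73.9, 94.0 and 73.7 CPM in the bone marrow libraries. The 3 groups did not overlap. Mcm7 rose in MC903 resident against untreated cells (log2 fold change 1.84 with SE 0.391, edgeR adjusted p = 0.0106). Mcm7 rose in bone marrow against untreated cells (log2 fold change 3.19 with SE 0.421, edgeR adjusted p = 4.88e-05). Mcm7 was not called in bone marrow against MC903 resident cells (log2 fold change 1.35 with SE 0.400, edgeR adjusted p = 0.0883). Mcm5 (ENSMUSG00000005410.6, GRCm38 chr8:75109569-75128439, + strand) had 13.2, 8.58, 7.74, 12.4 and 14.6 CPM in the untreated libraries and 17.9, 54.9, 29.7, 52.3 and 59.7 CPM in the MC903 resident libraries. Mcm5 was at 151, 74.2, 65.2 and 26.2 CPM in the bone marrow libraries. All MC903 resident libraries lay above all untreated libraries, while library 15 was the lowest bone marrow library and lay within the MC903 resident range. Mcm5 rose in MC903 resident against untreated cells (log2 fold change 1.93 with SE 0.405, edgeR adjusted p = 0.0100). Mcm5 rose in bone marrow against untreated cells (log2 fold change 2.81 with SE 0.430, edgeR adjusted p = 0.000225). Between the MC903 groups Mcm7 was called without library 3 or 5 (adjusted p = 0.0398 at the lowest, edgeR), with limma (0.00651), with only the groups compared (0.0193) and with unfiltered genes (0.0212). The Mcm7 call between resident groups was lost without libraries 7, 8 and 15 (adjusted p = 0.0520, edgeR), and the Mcm5 call was lost with limma's voomWithQualityWeights (adjusted p = 0.0643).

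Mcm6 (ENSMUSG00000026355.11, GRCm38 chr1:128331590-128359664, − strand) had 45.0, 31.0, 15.8, 55.3 and 46.9 CPM in the untreated libraries and 48.0, 54.5, 33.7, 64.2 and 115 CPM in the MC903 resident libraries. Mcm6 was at 193, 249, 285 and 178 CPM in the bone marrow libraries. Bone marrow libraries were separate from both resident groups, which overlapped. Mcm6 rose in bone marrow against MC903 resident cells (log2 fold change 1.84 with SE 0.340, edgeR adjusted p = 0.00416). Mcm6 rose in bone marrow against untreated cells (log2 fold change 2.54 with SE 0.346, edgeR adjusted p = 6.45e-05). Mcm6 was not called in MC903 resident against untreated cells (log2 fold change 0.70 with SE 0.319, edgeR adjusted p = 0.348). Mcm3 (ENSMUSG00000041859.10, GRCm38 chr1:20802968-20820312, − strand) had 57.5, 91.3, 81.0, 54.1 and 74.8 CPM in the untreated libraries and 70.7, 81.1, 72.1, 63.7 and 106 CPM in the MC903 resident libraries. Mcm3 was at 172, 140.0, 177 and 109 CPM in the bone marrow libraries. It was nearly level across the resident groups and higher in every bone marrow library. Mcm3 rose in bone marrow against MC903 resident cells (log2 fold change 0.93 with SE 0.226, edgeR adjusted p = 0.0323). Mcm3 rose in bone marrow against untreated cells (log2 fold change 1.06 with SE 0.226, edgeR adjusted p = 0.00490). Mcm3 was not called in MC903 resident against untreated cells (log2 fold change 0.13 with SE 0.214, edgeR adjusted p = 0.894). The call of Mcm3 between bone marrow and MC903 resident cells was lost on leaving out any 1 of libraries 4, 6, 7, 8, 9, 11, 13 or 14 (adjusted p up to 0.108, edgeR), under all 3 other scalings (up to 0.0764), with only the groups compared (0.0667) and without libraries 7, 8 and 15 (0.0750). That of Mcm6 was lost without libraries 7, 8 and 15 (0.0536).

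Mcm2 had 7.11, 9.43, 23.3, 38.5 and 25.3 CPM in the untreated libraries and 30.5, 39.2, 36.0, 44.7 and 104 CPM in the MC903 resident libraries. Mcm2 was at 161, 133, 174 and 88.1 CPM in the bone marrow libraries. Library 10 reached the bone marrow range, and untreated library 4 the MC903 resident range. Mcm2 rose in bone marrow against untreated cells (log2 fold change 2.74 with SE 0.440, edgeR adjusted p = 0.000362). Mcm2 was not called in MC903 resident against untreated cells (log2 fold change 1.30 with SE 0.408, edgeR adjusted p = 0.112). Mcm2 was not called in bone marrow against MC903 resident cells (log2 fold change 1.45 with SE 0.425, edgeR adjusted p = 0.0843). The latter was called without library 10 or 15 (adjusted p = 0.0411 without library 15, edgeR), with DESeq2's Wald test (0.0338), with limma (0.00204) and with unfiltered genes (0.000455), and the former with DESeq2's Wald test (0.0169), without library 4 (0.0315, edgeR) and with 3 other settings. Mcm4 had 20.1, 42.1, 18.8, 11.7 and 26.9 CPM in the untreated libraries and 35.5, 51.1, 16.5, 33.7 and 73.1 CPM in the MC903 resident libraries. Mcm4 was at 47.7, 83.9, 87.5 and 29.5 CPM in the bone marrow libraries. It was the only subunit called in no comparison, though its adjusted p in bone marrow against untreated cells was 0.0535 (edgeR). Fits that leave out a single library aside, it was called higher there in 7 alternatives. These were edgeR with DESeq2 size factors, with TMM factors from genes of at least 10 CPM, under both other filters and without libraries 7, 8 and 15, and DESeq2's Wald test and limma. Per length, as mean CPM per kilobase (RPKM), the 6 subunits from Mcm2 to Mcm7 were at 2.98, 19.1, 6.66, 2.83, 8.32 and 2.21 in untreated cells, 7.31, 20.98, 11.7, 10.7, 13.5 and 7.91 in MC903 resident cells and 20.0, 39.9, 17.3, 19.8, 48.5 and 20.2 in bone marrow cells. The highest mean RPKM exceeded the lowest 8.64-fold in untreated cells (Mcm3 over Mcm7), 2.87-fold in MC903 resident cells (Mcm3 over Mcm2) and 2.80-fold in bone marrow cells (Mcm6 over Mcm4). Within single libraries this ratio was 5.48 to 31.5 in untreated, 2.64 to 4.30 in MC903 resident and 3.19 to 5.83 in bone marrow libraries, so the untreated range overlapped only that of the bone marrow libraries.

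**Figure D4:**
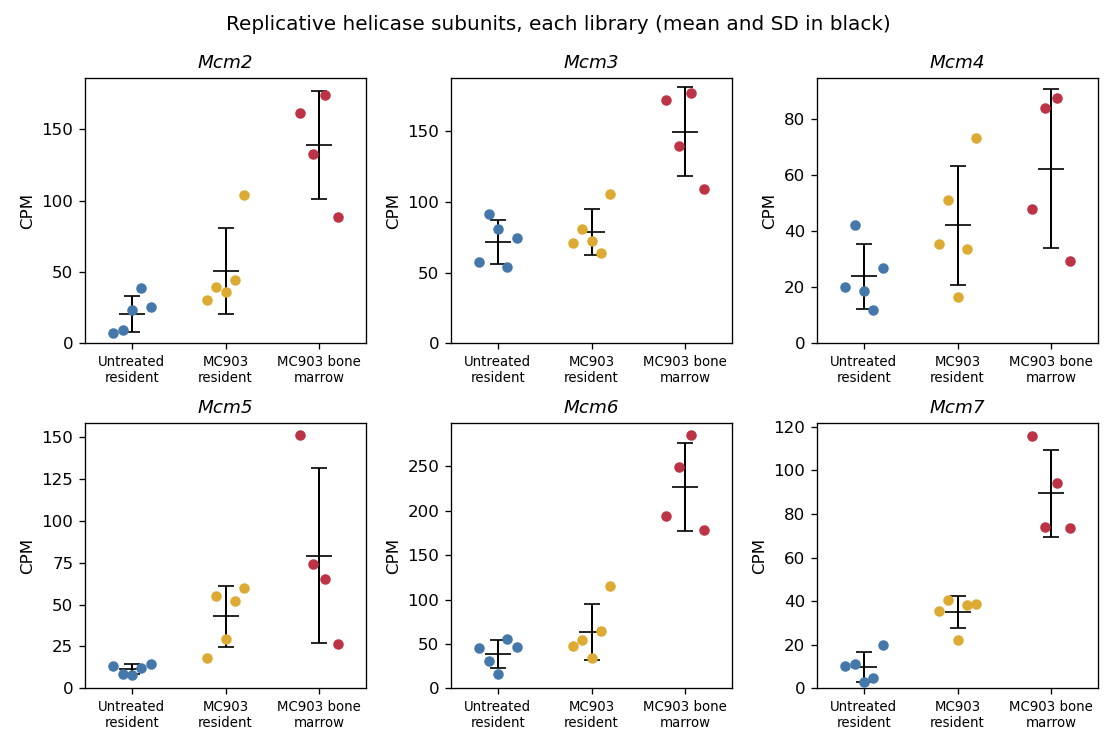
CPM of the helicase genes Mcm2 to Mcm7 (1 panel each, y axis from 0) by group (x axis), with a point per library and the mean and SD as a bar. Bone marrow libraries are separate from both resident groups for Mcm3, Mcm6 and Mcm7, and all groups overlap for Mcm4.

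Rrm1 and Rrm2 encode the large and small subunits of ribonucleotide reductase, which makes deoxynucleotides for DNA synthesis. Rrm1 had 20.1, 32.6, 6.73, 33.4 and 16.9 CPM in the untreated libraries and 39.2, 18.6, 28.8, 63.7 and 29.2 CPM in the MC903 resident libraries. Rrm1 was at 100.4, 77.5, 116 and 72.0 CPM in the bone marrow libraries. Rrm1 rose in bone marrow against untreated cells (log2 fold change 2.06 with SE 0.400, edgeR adjusted p = 0.00225). Rrm2 had 2.65, 5.06, 0.150, 0.0946 and 0 CPM in the untreated libraries and 12.6, 15.2, 18.4, 18.3 and 1.43 CPM in the MC903 resident libraries. Rrm2 was at 58.0, 89.7, 152 and 13.3 CPM in the bone marrow libraries. Rrm2 rose in bone marrow against untreated cells (log2 fold change 5.61 with SE 1.36, edgeR adjusted p = 0.0247). All bone marrow libraries lay above all untreated libraries for both genes. In MC903 resident library 10 Rrm2 was at 1.43 CPM against 12.6 to 18.4 CPM in libraries 6 to 9. The Rrm2 call was lost on leaving out library 1, 11, 13 or 14 (adjusted p up to 0.0638, edgeR) and with unfiltered genes (0.0770). The Rrm1 call was kept in every alternative. Rrm1 was not called in bone marrow against MC903 resident cells (log2 fold change 1.35 with SE 0.395, edgeR adjusted p = 0.0825). Its libraries did not overlap there, and it was called higher by DESeq2's Wald test (adjusted p = 0.0386), limma (0.0151) and edgeR with unfiltered genes (0.0124); limma also called Rrm2 (0.0226) and Hells (0.0376) higher in that comparison.

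Uhrf1, which brings the maintenance DNA methyltransferase to newly copied DNA (ENSMUSG00000001228.14, GRCm38 chr17:56303321-56323486, + strand), had 1.24, 0.653, 1.65, 2.36 and 0.801 CPM in the untreated libraries and 6.54, 12.1, 9.96, 14.4 and 14.5 CPM in the MC903 resident libraries. Uhrf1 was at 58.1, 2.70, 62.1 and 27.8 CPM in the bone marrow libraries. Untreated libraries were the lowest throughout, and bone marrow library 13 was below the MC903 resident range. Uhrf1 rose in MC903 resident against untreated cells (log2 fold change 3.096 with SE 0.648, edgeR adjusted p = 0.00959). Uhrf1 rose in bone marrow against untreated cells (log2 fold change 4.81 with SE 0.7103, edgeR adjusted p = 0.000157). Its call between resident groups was lost with limma's voomWithQualityWeights (adjusted p = 0.179) and without libraries 7, 8 and 15 (0.0611).

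Pcna, the sliding clamp of the replicative polymerases (ENSMUSG00000027342.14, GRCm38 chr2:132249162-132253314, − strand), ran the other way. It had 190.0, 139.6, 188, 204 and 364 CPM in the untreated libraries and 47.8, 94.8, 86.5, 112 and 163 CPM in the MC903 resident libraries. Pcna was at 108, 129, 109 and 106 CPM in the bone marrow libraries. Library 10 lay within the untreated range, and every bone marrow library was below every untreated library. Pcna fell in MC903 resident against untreated cells (log2 fold change -1.11 with SE 0.278, edgeR adjusted p = 0.0367). That call was lost on leaving out any 1 of libraries 1, 3, 4, 5, 6, 7, 8 or 9 (adjusted p up to 0.123, edgeR), without libraries 7, 8 and 15 (0.259) and in 3 other alternatives. Pcna was not called in bone marrow against untreated cells (log2 fold change -0.94 with SE 0.297, edgeR adjusted p = 0.0617). Apart from fits that leave out a single library, this comparison was called lower in 7 alternatives (adjusted p 0.0161 to 0.0487). These were the 3 other scalings, both other filters, DESeq2's Wald test and only the groups compared. Per length, Pcna was the S phase gene with the highest level over all libraries, with mean RPKM of 90.5, 42.0 and 47.1 in untreated, MC903 resident and bone marrow cells, and Mcm3 was next with 19.1, 20.98 and 39.9; in bone marrow cells alone Mcm6 had the highest mean, 48.5. The remaining S phase genes, Mcm4 aside, were not called in any comparison: Gins2 and Cdc45 of the helicase complex, Cdc6, which loads the helicase, the chromatin remodeller Hells and thymidylate synthase (Tyms). Gins2 and Hells were close to a call in bone marrow against untreated cells (edgeR adjusted p = 0.0514 and 0.0603). Both were called higher there by DESeq2's Wald test, by limma and by edgeR under both other filters, and Gins2 also with 2 other scalings; limma alone called Tyms. Between the resident groups Gins2 was called higher by DESeq2's Wald test, by limma and by edgeR with unfiltered genes, and limma alone called Tyms. Of these, Hells (bone marrow 26.2 to 35.3 CPM, untreated 0.0374 to 10.4 CPM) and Gins2 (16.6 to 26.8 CPM and 0 to 6.71 CPM) did not overlap between bone marrow and untreated libraries. Cdc6 (20.8, 16.2 and 20.3 CPM on average) and Pcna were the S phase genes with a lower mean in bone marrow than in untreated cells.

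Of the 26 mitosis genes, 0 were called in MC903 resident against untreated cells and 0 in bone marrow against MC903 resident cells by edgeR, with 5 and 3 at an unadjusted p under 0.05 and smallest adjusted p of 0.104 and 0.116, and 4 rose in bone marrow against untreated cells, where 20 had an unadjusted p under 0.05. With unfiltered genes edgeR called Tpx2 and Anln higher between the resident groups and Prc1 between the MC903 groups, and with only genes averaging 10 CPM or more tested it called Tpx2 between the resident groups. With DESeq2's Wald test 2, 0 and 13 of them were called higher in MC903 resident against untreated, bone marrow against MC903 resident and bone marrow against untreated cells, and with limma's voomWithQualityWeights 2, 2 and 10, beside the shares of all genes given above for these tools. Their median log2 fold changes were 1.78, 1.23 and 2.95 in the 3 comparisons, in that order, against 1.11, 0.93 and 2.54 for the S phase genes. All of them except Kif23 had a higher mean in bone marrow than in untreated cells.

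Top2a, the topoisomerase that untangles copied chromosomes (ENSMUSG00000020914.17, GRCm38 chr11:98992943-99024189, − strand), had 31.5, 0.694, 4.26, 5.58 and 9.43 CPM in the untreated libraries and 31.5, 34.3, 23.4, 37.9 and 23.2 CPM in the MC903 resident libraries. Top2a was at 136, 20.3, 255 and 38.4 CPM in the bone marrow libraries. Library 1 reached the MC903 resident range, and bone marrow library 13 lay below it and within the untreated range. Top2a rose in bone marrow against untreated cells (log2 fold change 3.45 with SE 0.905, edgeR adjusted p = 0.0360). Top2a was not called in MC903 resident against untreated cells (log2 fold change 1.55 with SE 0.825, edgeR adjusted p = 0.498). Top2a was not called in bone marrow against MC903 resident cells (log2 fold change 1.90 with SE 0.860, edgeR adjusted p = 0.271). Mki67, whose protein Ki-67 coats chromosomes in dividing cells and is the usual proliferation marker (ENSMUSG00000031004.8, GRCm38 chr7:135689784-135716361, − strand), had 68.1, 3.35, 12.9, 23.3 and 7.34 CPM in the untreated libraries and 64.5, 59.2, 91.8, 171 and 16.1 CPM in the MC903 resident libraries. Mki67 was at 149, 46.3, 177 and 143 CPM in the bone marrow libraries. Library 1 was at 68.1 CPM, above library 13 at 46.3 CPM, so untreated and bone marrow libraries overlapped. Mki67 was not called in MC903 resident against untreated cells (log2 fold change 1.81 with SE 0.781, edgeR adjusted p = 0.344). Mki67 was not called in bone marrow against MC903 resident cells (log2 fold change 0.68 with SE 0.798, edgeR adjusted p = 0.717). Mki67 was not called in bone marrow against untreated cells (log2 fold change 2.49 with SE 0.824, edgeR adjusted p = 0.0996). The last comparison was called without library 1 (adjusted p = 0.00899, edgeR), with only genes averaging 10 CPM or more tested (0.0491), with DESeq2's Wald test (0.0174) and with limma (0.0118). The Top2a call was lost on leaving out library 3, 4, 5, 11 or 14 (adjusted p up to 0.0933, edgeR), and with only the groups compared or no filter on low counts (up to 0.104).

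The other called mitosis genes were Plk1, a kinase of mitotic entry, Foxm1, a transcription factor of mitosis genes, and Prc1, which bundles microtubules of the midzone. Plk1 had 1.69, 0, 0, 0.189 and 0.401 CPM in the untreated libraries and 9.23, 5.14, 9.58, 10.9 and 0.252 CPM in the MC903 resident libraries. Plk1 was at 53.9, 0, 34.8 and 11.6 CPM in the bone marrow libraries. Plk1 rose in bone marrow against untreated cells (log2 fold change 5.79 with SE 1.63, edgeR adjusted p = 0.0400). Foxm1 had 9.54, 2.37, 1.01, 0.756 and 1.07 CPM in the untreated libraries and 12.3, 14.9, 6.43, 17.8 and 0.924 CPM in the MC903 resident libraries. Foxm1 was at 51.4, 0.589, 63.8 and 23.6 CPM in the bone marrow libraries. Foxm1 rose in bone marrow against untreated cells (log2 fold change 3.57 with SE 1.00003, edgeR adjusted p = 0.0337). Prc1 had 9.99, 4.41, 3.14, 1.47 and 6.497 CPM in the untreated libraries and 17.5, 16.7, 2.44, 22.4 and 1.85 CPM in the MC903 resident libraries. Prc1 was at 73.2, 3.78, 61.5 and 38.4 CPM in the bone marrow libraries. Prc1 rose in bone marrow against untreated cells (log2 fold change 3.12 with SE 0.785, edgeR adjusted p = 0.0170). For all 3 genes libraries 11, 14 and 15 lay above the untreated range, and library 13 was inside it for Plk1 and Prc1 and below it for Foxm1. The Plk1 call was lost on leaving out library 2, 3, 4, 5, 9, 11 or 14, the Foxm1 call on leaving out library 2, 3, 4, 5, 11 or 14, and the Prc1 call on leaving out library 11 (edgeR adjusted p up to 0.0997, 0.0876 and 0.0509). With limma's voomWithQualityWeights all 3 calls were lost (adjusted p = 0.294, 0.322 and 0.120). Without libraries 7, 8 and 15 the Plk1 and Foxm1 calls were lost (0.0523 and 0.0663, edgeR), as with only the groups compared (0.0707 and 0.0714), and Plk1 also with unfiltered genes (0.153).

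Among the genes not called, the mitotic cyclin gene Ccnb2 had 18.3, 2.37, 0.935, 0.189 and 16.8 CPM in the untreated libraries and 28.8, 38.8, 43.1, 148 and 0 CPM in the MC903 resident libraries. Ccnb2 was at 90.3, 22.9, 35.7 and 122 CPM in the bone marrow libraries. Library 9 was the highest library and library 10 had 0 counts. Cdk1, the kinase that B-type cyclins activate, had 22.9, 3.27, 0.150, 0.0946 and 20.2 CPM in the untreated libraries and 11.8, 40.5, 35.1, 55.1 and 11.8 CPM in the MC903 resident libraries. Cdk1 was at 132, 41.6, 82.0 and 77.5 CPM in the bone marrow libraries. Ube2c, an enzyme of the anaphase-promoting complex pathway, had 15.5, 0, 0.524, 0.142 and 0.178 CPM in the untreated libraries and 28.4, 11.3, 30.1, 16.1 and 0.0840 CPM in the MC903 resident libraries. Ube2c was at 103, 38.7, 37.4 and 210.1 CPM in the bone marrow libraries. Bone marrow and untreated libraries did not overlap for 8 of the 26 mitosis genes, these 3 and Ccnb1, Aurkb, Tpx2, Cenpe and Kif20a (5.13% of all genes tested were separate in that direction), of which none was called. With unfiltered genes edgeR called Tpx2, Cenpe and Kif20a higher. Of the 8, DESeq2's Wald test called Cdk1, Ube2c, Tpx2, Cenpe and Kif20a higher, and limma called Cdk1, Ube2c, Tpx2, Cenpe and Aurkb higher; DESeq2 gave no adjusted p for Aurkb. Cks2, a small subunit of the cyclin-dependent kinases, had 36.8, 25.2, 25.95, 24.2 and 56.2 CPM in the untreated libraries and 20.7, 19.0, 33.4, 29.0 and 22.0 CPM in the MC903 resident libraries. Cks2 was at 86.2, 43.3, 50.1 and 30.3 CPM in the bone marrow libraries. Its mean was higher in untreated than in MC903 resident cells. Kif23, a kinesin of cytokinesis, had 103, 154, 125, 74.0 and 235 CPM in the untreated libraries and 140.4, 85.7, 90.7, 132 and 82.2 CPM in the MC903 resident libraries. Kif23 was at 118, 95.0, 85.7 and 39.2 CPM in the bone marrow libraries. It was the one mitosis gene with a negative log2 fold change in all 3 comparisons. Per length, Cks2 and Ccnb2 had the highest levels of the 26 over all libraries, with mean RPKM of 48.6, 35.9 and 75.9 for Cks2 and 5.04, 33.8 and 44.3 for Ccnb2 in untreated, MC903 resident and bone marrow cells, and Kif23, which was above Ccnb2 in untreated cells, was at 17.5, 13.4 and 10.7. Without Kif23 and Cks2 the mitosis genes summed to 374, 37.6, 52.4, 62.3 and 201 CPM in the untreated libraries, 429.7, 490.3, 512, 1062 and 90.2 CPM in the MC903 resident libraries and 1669, 385, 1577 and 1070.5 CPM in the bone marrow libraries. Untreated libraries thus spread over a wide range, with library 1 close to the lowest MC903 resident libraries other than library 10. The remaining genes, which were Ccna2, Birc5, Bub1, Bub1b, Cdc20, Aurka, Cenpf, Nusap1, Hmmr, Kif11 and Anln, had means of 0.858 to 8.69 CPM in untreated, 5.56 to 33.3 CPM in MC903 resident and 6.63 to 63.2 CPM in bone marrow cells, and groups overlapped in all comparisons.

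Of the 10 G1 regulators, 2 rose in MC903 resident against untreated cells, 0 were called in bone marrow against MC903 resident cells (edgeR; 4 at an unadjusted p under 0.05, 1 lower with DESeq2's Wald test, and 3 higher and 1 lower with limma's voomWithQualityWeights) and 4 were called in bone marrow against untreated cells (3 higher, 1 lower), beside 2.25%, 2.27% and 6.87% of all genes by edgeR, with median log2 fold changes of 0.55, 0.26 and 0.81.

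Cdk6, a kinase that pairs with D-type cyclins (ENSMUSG00000040274.11, GRCm38 chr5:3341485-3531008, + strand), had 152, 131, 186, 198 and 162 CPM in the untreated libraries and 326, 312, 224, 379 and 439 CPM in the MC903 resident libraries. Cdk6 was at 477, 600.3, 426 and 369.9 CPM in the bone marrow libraries. All untreated libraries lay below all others, and the 2 MC903 groups overlapped. Cdk6 rose in MC903 resident against untreated cells (log2 fold change 1.02 with SE 0.196, edgeR adjusted p = 0.00477). Cdk6 rose in bone marrow against untreated cells (log2 fold change 1.498 with SE 0.206, edgeR adjusted p = 7.14e-05). Cdk6 was not called in bone marrow against MC903 resident cells (log2 fold change 0.48 with SE 0.205, edgeR adjusted p = 0.227). Both calls were kept in every alternative, and limma also called the rise of Cdk6 between the MC903 groups (adjusted p = 0.0269). Its relative Cdk4 had 151, 96.2, 117, 160.4 and 199 CPM in the untreated libraries and 152, 172, 128, 169 and 164 CPM in the MC903 resident libraries. Cdk4 was at 258, 244, 285 and 181 CPM in the bone marrow libraries. Cdk4 rose in bone marrow against untreated cells (log2 fold change 0.74 with SE 0.212, edgeR adjusted p = 0.0361). The Cdk4 ranges of these groups overlapped, and the call was lost on leaving out library 1, 2, 3, 11, 13 or 14 (adjusted p up to 0.116, edgeR) and with only the groups compared or unfiltered genes (up to 0.0665). Per length, Cdk4 and Cdk6 had the highest levels of the 10 over all libraries, with mean RPKM of 44.5, 48.3 and 74.5 for Cdk4 and 11.9, 24.0 and 33.5 for Cdk6 in untreated, MC903 resident and bone marrow cells; in untreated cells alone Ccnd2 and not Cdk6 was second.

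The D-type cyclins, which activate these kinases, went in different directions. Ccnd3 (ENSMUSG00000034165.16, GRCm38 chr17:47505051-47599691, + strand) had 83.9, 88.8, 67.5, 89.9 and 42.5 CPM in the untreated libraries and 136, 172, 96.0, 178 and 169.6 CPM in the MC903 resident libraries. Ccnd3 was at 136, 186, 121 and 157 CPM in the bone marrow libraries. Every untreated library was below every other library. Ccnd3 rose in MC903 resident against untreated cells (log2 fold change 1.01 with SE 0.231, edgeR adjusted p = 0.0186). Ccnd3 rose in bone marrow against untreated cells (log2 fold change 1.01 with SE 0.242, edgeR adjusted p = 0.0117). The former call was lost without library 3 (adjusted p = 0.0518, edgeR). Ccnd1 (ENSMUSG00000070348.5, GRCm38 chr7:144929931-144939925, − strand) had 13.999, 8.62, 5.65, 24.5 and 27.8 CPM in the untreated libraries and 1.87, 2.77, 2.06, 0.388 and 1.43 CPM in the MC903 resident libraries. Ccnd1 was at 0, 0, 0 and 0.707 CPM in the bone marrow libraries. The untreated libraries were separate from both other groups, and of the bone marrow libraries only library 15, the library with macrophage genes, had any count, 14 in all; a count of 0 in the others allows up to 0.104 to 0.128 CPM. Ccnd1 fell in bone marrow against untreated cells (log2 fold change -6.51 with SE 1.45, edgeR adjusted p = 0.00706). This fold rests on library 15: without it the call was kept (log2 fold change -11.46, adjusted p = 7.14e-05, edgeR), and as the other 3 libraries had 0 counts, their level was at least 126-fold lower than the untreated mean of 16.1 CPM, taking 3 counts per library as the floor. Ccnd1 was not called in the other comparisons, in both of which DESeq2's Wald test and limma called it lower. Fits that leave out a single library aside, edgeR also did so between the resident groups with unfiltered genes (adjusted p = 0.0325) or only the groups compared (0.0111). Between the MC903 groups edgeR did so without libraries 7, 8 and 15 (0.0151). Ccnd2 had 207, 172, 132, 162 and 184 CPM in the untreated libraries and 135, 149, 149, 123.4 and 199.97 CPM in the MC903 resident libraries. Ccnd2 was at 224, 328, 234 and 221 CPM in the bone marrow libraries. All its bone marrow libraries were above all others, and it was called in no comparison; limma called it higher in bone marrow cells in both, and edgeR against untreated cells with only genes averaging 10 CPM or more tested. Per length, mean RPKM of Ccnd1 was 3.42, 0.361 and 0.0375, of Ccnd2 18.2, 16.1 and 26.8 and of Ccnd3 8.49, 17.1 and 17.1 in untreated, MC903 resident and bone marrow cells, so Ccnd2 had the highest mean of the 3 in untreated and bone marrow cells and Ccnd3 in MC903 resident cells. In MC903 resident cells the ranges of Ccnd2 and Ccnd3 in RPKM overlapped.

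Of the E2F factors that switch on replication genes, E2f2 had 0, 0, 0, 0.284 and 0.267 CPM in the untreated libraries and 1.504, 7.50, 3.60, 9.30 and 6.64 CPM in the MC903 resident libraries. E2f2 was at 0, 11.5, 0.978 and 5.05 CPM in the bone marrow libraries. All MC903 resident libraries lay above all untreated libraries, of which 3 had 0 counts. E2f2 was not called, but between the resident groups DESeq2's Wald test, limma and edgeR with unfiltered genes or only the groups compared called it higher, and in bone marrow against untreated cells DESeq2's Wald test (adjusted p = 0.00166) and edgeR with unfiltered genes (0.0196) did. E2f1 had mean levels of 15.2, 28.6 and 27.8 CPM in the 3 groups with overlapping libraries. The kinase Cdk2 was at 69.8, 79.1 and 81.2 CPM, and its E-type cyclins Ccne1 and Ccne2 at 2.06, 10.8 and 17.2 CPM and at 3.61, 3.56 and 5.17 CPM; the groups overlapped for all 3, and edgeR called none; limma called Ccne1 higher in MC903 resident and in bone marrow than in untreated cells.

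**Figure D5:**
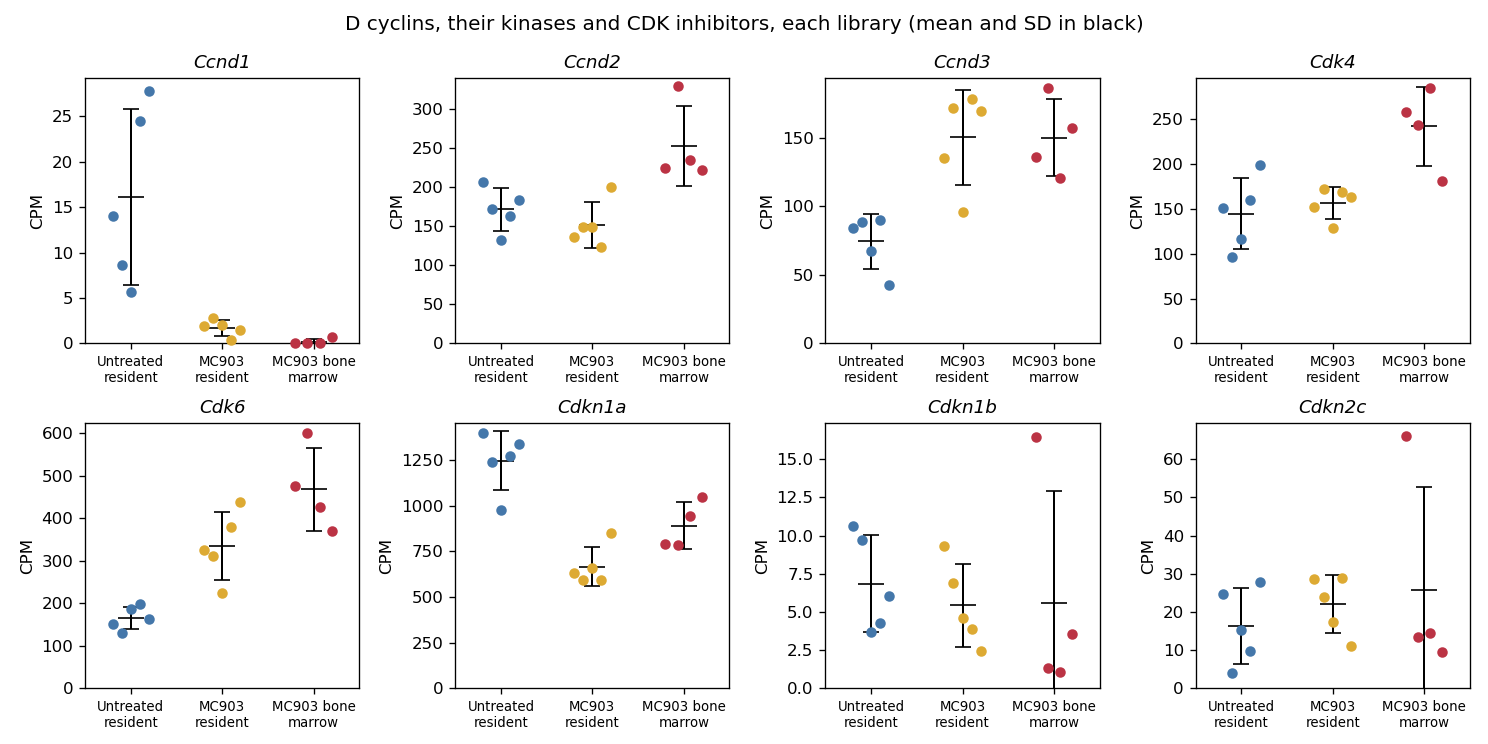
CPM of the D-type cyclins, Cdk4, Cdk6 and the kinase inhibitors (1 panel each, y axis from 0) by group (x axis), with a point per library and the mean and SD as a bar; SD bars that would pass below 0 are cut at 0. Untreated means are highest for Ccnd1, Cdkn1a and Cdkn1b, lowest for Cdk6, Ccnd3, Cdk4 and Cdkn2c, and neither for Ccnd2.

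Cdkn1a encodes p21, which inhibits cyclin-dependent kinases and is a target of p53 (ENSMUSG00000023067.14, GRCm38 chr17:29090976-29100727, + strand), and per length it was the most abundant of the 55 genes in every group, with mean RPKM of 351, 188 and 251 in untreated, MC903 resident and bone marrow cells. It had 1399, 1240.1, 978, 1274 and 1339 CPM in the untreated libraries and 630.1, 596, 658, 595 and 853 CPM in the MC903 resident libraries. Cdkn1a was at 789, 783, 946 and 1047 CPM in the bone marrow libraries. All MC903 resident libraries were below all untreated libraries, and of the bone marrow libraries library 15 was within the untreated range. Cdkn1a fell in MC903 resident against untreated cells (log2 fold change -0.90 with SE 0.158, edgeR adjusted p = 0.00227). Cdkn1a was not called in bone marrow against MC903 resident cells (log2 fold change 0.42 with SE 0.166, edgeR adjusted p = 0.187). Cdkn1a was not called in bone marrow against untreated cells (log2 fold change -0.48 with SE 0.168, edgeR adjusted p = 0.0921). The fall was kept in every alternative. The last comparison was called with the DESeq2 Wald test, with limma's voomWithQualityWeights and without libraries 7, 8 and 15 (adjusted p 0.00614 to 0.131 over all alternatives other than single libraries left out).

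Cdkn1b, encoding p27, had 10.6, 9.72, 3.66, 4.25 and 6.05 CPM in the untreated libraries and 9.34, 6.93, 4.63, 3.88 and 2.44 CPM in the MC903 resident libraries. Cdkn1b was at 16.4, 1.32, 1.11 and 3.54 CPM in the bone marrow libraries. Cdkn2c, encoding the Cdk4 and Cdk6 inhibitor p18, had 24.6, 4.08, 15.3, 9.83 and 27.9 CPM in the untreated libraries and 28.7, 23.9, 17.5, 28.8 and 11.2 CPM in the MC903 resident libraries. Cdkn2c was at 66.0, 13.4, 14.4 and 9.49 CPM in the bone marrow libraries. Library 11 was the highest library for both, the groups overlapped and neither gene was called. Stmn1 encodes stathmin, a protein that destabilises microtubules and is abundant in dividing cells. It had 104, 77.2, 31.97, 88.2 and 209 CPM in the untreated libraries and 125, 187, 195, 303 and 169 CPM in the MC903 resident libraries. Stmn1 was at 309.6, 188, 341 and 202 CPM in the bone marrow libraries. Stmn1 rose in bone marrow against untreated cells (log2 fold change 1.35 with SE 0.370, edgeR adjusted p = 0.0303). Library 5 lay within the bone marrow range, and the call was lost on leaving out library 1, 2, 4, 11 or 14 (adjusted p up to 0.0998, edgeR) and without libraries 7, 8 and 15 (0.0557) or with only the groups compared (0.0714). In MC903 resident against untreated cells Stmn1 was not called, but limma (adjusted p = 0.0281) and edgeR with unfiltered genes (0.0135) called it higher.

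Other genes of the pathway, in lists fixed with earlier results of these data known, were read from the same fits, in which 2.25%, 2.27% and 6.87% of all genes were called in MC903 resident against untreated, bone marrow against MC903 resident and bone marrow against untreated cells. Of 26 further replication genes, 0 were called in MC903 resident against untreated cells, 0 in bone marrow against MC903 resident cells (edgeR; 5 and 5 at an unadjusted p under 0.05, 2 higher and then 2 lower with DESeq2's Wald test, and 3 higher and 1 lower and then 4 higher with limma's voomWithQualityWeights) and 3 in bone marrow against untreated cells, all higher. These were the primase subunit gene Prim1, the histone chaperone subunit gene Chaf1a and Rpa2, which binds single-stranded DNA. Prim1 rose in bone marrow against untreated cells (log2 fold change 2.71 with SE 0.721, edgeR adjusted p = 0.0243). Chaf1a rose in bone marrow against untreated cells (log2 fold change 2.36 with SE 0.638, edgeR adjusted p = 0.0268). Rpa2 rose in bone marrow against untreated cells (log2 fold change 1.93 with SE 0.410, edgeR adjusted p = 0.00472). The Chaf1a call was lost without library 2, 3, 13 or 15 (adjusted p up to 0.0633, 0.0592 without library 15, edgeR) and without libraries 7, 8 and 15 (0.0584). The Prim1 call was lost without library 2, 3, 11 or 13 (up to 0.0571) and with only the groups compared (0.0703), and Rpa2 was called in all alternatives. Of the 26 genes, 12 had an unadjusted p under 0.05 in bone marrow against untreated cells. There edgeR called 4 higher with DESeq2 size factors and 5 with TMM factors from genes of at least 10 CPM, so this count also depended on the setting. The medians over this list were 0.57, 0.64 and 1.04 log2, below those of the 15 S phase genes. Of 40 further mitosis genes, 1 rose in MC903 resident against untreated cells (2.5%, close to the background). In bone marrow against MC903 resident cells edgeR called 0, with 7 at an unadjusted p under 0.05. There 1 was lower with DESeq2's Wald test and 2 were higher with limma's voomWithQualityWeights. In bone marrow against untreated cells 5 rose and 1 fell, and 26 had an unadjusted p under 0.05. With TMM factors from genes of at least 10 CPM edgeR called 8 higher and 1 lower there, so this count depended on the setting. The medians in the 3 comparisons, in that order, were 1.58, 0.76 and 2.65.

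The gene called in both comparisons was Cenpa, the histone that marks centromeres. It had 12.4, 12.2, 10.6, 15.1 and 13.4 CPM in the untreated libraries and 54.9, 44.3, 44.5, 111 and 8.07 CPM in the MC903 resident libraries. Cenpa was at 159, 37.3, 38.4 and 95.2 CPM in the bone marrow libraries. Untreated libraries were tight, every bone marrow library was above them, and library 10 was below them. Cenpa rose in MC903 resident against untreated cells (log2 fold change 2.04 with SE 0.491, edgeR adjusted p = 0.0272). Cenpa rose in bone marrow against untreated cells (log2 fold change 2.70 with SE 0.518, edgeR adjusted p = 0.00216). The former call was lost on leaving out library 1, 2, 3, 4, 5, 6 or 9 (adjusted p up to 0.0993, edgeR), without libraries 7, 8 and 15 (0.108) and with limma (0.0831). The other genes that rose in bone marrow cells were Incenp of the chromosomal passenger complex, the kinesin Kif18b, the spindle checkpoint gene Mad2l1 and the condensin subunit Ncaph. Incenp rose in bone marrow against untreated cells (log2 fold change 2.24 with SE 0.528, edgeR adjusted p = 0.0105). Kif18b rose in bone marrow against untreated cells (log2 fold change 5.64 with SE 1.37, edgeR adjusted p = 0.0130). Mad2l1 rose in bone marrow against untreated cells (log2 fold change 1.93 with SE 0.510, edgeR adjusted p = 0.0228). Ncaph rose in bone marrow against untreated cells (log2 fold change 2.37 with SE 0.670, edgeR adjusted p = 0.0346). In leave-one-out fits the Incenp, Mad2l1 and Ncaph calls were lost at an edgeR adjusted p of up to 0.0609, 0.0565 and 0.0972, the Mad2l1 call also without libraries 7, 8 and 15 (0.0623), the Mad2l1 and Ncaph calls with only the groups compared (0.0634 and 0.0787), and Kif18b was called in all alternatives that tested it. Pttg1 encodes securin, which holds back chromosome separation. Pttg1 fell in bone marrow against untreated cells (log2 fold change -1.30 with SE 0.228, edgeR adjusted p = 0.000924). It had 83.0, 74.8, 92.4, 98.2 and 81.4 CPM in the untreated libraries and 63.8, 39.4, 54.6, 53.6 and 65.1 CPM in the MC903 resident libraries. Pttg1 was at 31.3, 35.0, 37.0 and 36.5 CPM in the bone marrow libraries. The 3 groups did not overlap, and the call was kept in all alternatives.

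Among 16 genes of the retinoblastoma, E2F and B-Myb complexes, 1 was called in MC903 resident against untreated cells, 0 in bone marrow against MC903 resident cells (edgeR; 3 at an unadjusted p under 0.05, 1 higher with DESeq2's Wald test and 3 higher with limma's voomWithQualityWeights) and 3, all higher, in bone marrow against untreated cells. Mybl2, encoding B-Myb, had 0.226, 0.204, 0.0748, 0.189 and 0.0890 CPM in the untreated libraries and 0.415, 10.6, 7.39, 6.06 and 0.126 CPM in the MC903 resident libraries. Mybl2 was at 15.1, 1.73, 19.3 and 27.5 CPM in the bone marrow libraries. No untreated library passed 0.226 CPM, and library 10 was within that range. These values lie around the floor of 3 counts, which was 0.112 to 0.169 CPM in the untreated libraries. The sizes of the 2 fold changes that follow are therefore uncertain. Mybl2 rose in MC903 resident against untreated cells (log2 fold change 4.93 with SE 1.14, edgeR adjusted p = 0.0200). Mybl2 rose in bone marrow against untreated cells (log2 fold change 6.63 with SE 1.24, edgeR adjusted p = 0.00161). The former was lost without library 3 or 7 (adjusted p up to 0.0616, edgeR), without libraries 7, 8 and 15 (0.224) and with limma (0.138). Rbl1 encodes the retinoblastoma relative p107, and E2f8 a repressor. Rbl1 rose in bone marrow against untreated cells (log2 fold change 1.74 with SE 0.411, edgeR adjusted p = 0.0107). E2f8 rose in bone marrow against untreated cells (log2 fold change 3.54 with SE 0.893, edgeR adjusted p = 0.0172). The first call was lost without library 14 (adjusted p = 0.0575, edgeR) and the second without library 11 (0.0518) and with only the groups compared (0.0546).

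Among 11 tested genes of the p53 pathway and of growth arrest, of 13 listed, 2 fell in MC903 resident against untreated cells, as Cdkn1a did. Mdm2, a p53 target whose protein degrades p53, had 183, 84.7, 117, 92.8 and 69.4 CPM in the untreated libraries and 34.4, 30.0, 30.5, 28.5 and 66.9 CPM in the MC903 resident libraries. Mdm2 was at 65.2, 67.2, 75.2 and 54.9 CPM in the bone marrow libraries. The resident groups did not overlap. Mdm2 fell in MC903 resident against untreated cells (log2 fold change -1.52 with SE 0.289, edgeR adjusted p = 0.00436). Trp53 fell in MC903 resident against untreated cells (log2 fold change -1.0005 with SE 0.256, edgeR adjusted p = 0.0412). The Trp53 call was lost in 9 of 14 leave-one-out fits (adjusted p up to 0.164, edgeR), without libraries 7, 8 and 15 (0.0911) and in 4 other alternatives (up to 0.0973), and the Mdm2 call was lost only without libraries 7, 8 and 15 (0.0830). The antiproliferative genes Btg1 and Btg2 rose in bone marrow cells. Btg1 had 442, 401, 450.3, 477 and 480.0 CPM in the untreated libraries and 381, 313, 288, 348 and 434 CPM in the MC903 resident libraries. Btg1 was at 685, 757, 689 and 589 CPM in the bone marrow libraries. Btg1 rose in bone marrow against MC903 resident cells (log2 fold change 0.95 with SE 0.161, edgeR adjusted p = 0.00230). Btg1 rose in bone marrow against untreated cells (log2 fold change 0.60 with SE 0.161, edgeR adjusted p = 0.0262). Btg2 had 1.47, 0, 1.87, 0 and 1.16 CPM in the untreated libraries and 2.49, 5.25, 1.22, 5.91 and 0 CPM in the MC903 resident libraries. Btg2 was at 125, 416, 418 and 179 CPM in the bone marrow libraries. Btg2 rose in bone marrow against MC903 resident cells (log2 fold change 6.58 with SE 1.31, edgeR adjusted p = 0.0246). Btg2 rose in bone marrow against untreated cells (log2 fold change 8.30 with SE 1.42, edgeR adjusted p = 0.00385). Bone marrow libraries were separate from all resident libraries for both genes. Leaving out library 2, 11, 13 or 14 lost the Btg1 call against untreated cells (adjusted p up to 0.104, edgeR), and leaving out library 6, 8, 13 or 14 the Btg2 call against MC903 resident cells (up to 0.0731), which was also lost without libraries 7, 8 and 15 (0.0510) and with unfiltered genes (0.0631).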

How the data were processed

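The 14 libraries were made, per the labels' protocols, from pools of sorted cells by SMART-Seq HT, which amplifies full-length complementary DNA, followed by Nextera XT tagmentation. The authors deposited raw counts of reads per gene, and each gene's length, which is in another unit (bases), per the file headers. Alignment with STAR to mm10 and counting with featureCounts are named in the submitters' processing notes; their versions, the annotation and the strand setting were not given in the sources used here, so values of genes with an overlapping antisense gene are uncertain. All 14 columns of counts matched a library, and 0 were left unmapped. Of the 55487 gene identifiers, 55394 had a symbol, and 55094, with all 55 genes described here among them, had the same version and coordinates in GENCODE release M21 on GRCm38. The reads carried no molecular identifiers, so floors cover counting error only.

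Counts were fitted in R 4.3.3 with edgeR 4.0.16 (filterByExpr with a minimum count of 10 and a minimum total of 15, TMM, glmQLFit with robust estimation, glmQLFTest) in 1 model of 3 groups without covariates, with Benjamini-Hochberg adjustment of p-values over the 21014 genes tested. Total counts were 13068078 to 31781926 per library, and the biological coefficient of variation was 1.15. The SE of a log2 fold change was its size over the square root of F. RPKM were CPM divided by length in kilobases, and list means used log2 CPM with a prior count of 2. Promoter windows were searched in Python 3.11.15.

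The members and the lists were chosen with earlier results of these data known. Values in every library were given for genes called in any comparison, the 2 genes with the highest mean RPKM in each of the S phase, mitosis and G1 roles, the inhibitors, Stmn1, Mki67 and Top2a. Further genes so described (Mcm4, Cdk1, Ube2c, Kif23, Ccnd2 and E2f2, and the listed pathway genes Cenpa, Pttg1, Mybl2, Mdm2, Btg1 and Btg2) were chosen after their values were seen. For the pathway lists, the called genes were named, at most 6 a list. Other scalings (DESeq2 size factors, upper-quartile factors, and TMM factors from genes of at least 10 CPM), other filters (none, or a mean CPM of 10), other tests (Wald in DESeq2 1.42.0, voomWithQualityWeights in limma 3.58.1), fits of the compared pair of groups alone, and fits without each library or without libraries 7, 8 and 15 were the alternatives.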

Additional observations from a re-analysis of the deposited data

Results flagged for a closer look

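In each group the highest and the lowest library was compared with the library next to it, on the log2 scale, for 27 measures, which gave 81 groups. In 11 of them a single library stood far from the others. The rule is set so that independent, normally distributed values give such a gap in about 5% of groups. The measures share genes and libraries, so the count of 11 cannot be read against that share.

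Library 10 of the MC903 resident group stood apart in 6 measures. Rrm2 was at 1.43 CPM against 12.6 to 18.4 CPM in the other 4 libraries, Ccnb2 at 0 against 28.8 to 148 CPM, and Plk1 at 0.252 against 5.14 to 10.9 CPM. The mean over the mitosis genes was 0.46 against 3.96 to 5.01 log2 CPM, and the S phase mean minus the mitosis mean was 4.68 against 0.16 to 0.40. Cdkn1a was at 853 CPM in this library against 595 to 658 CPM.

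In the same group, Mcm7 was lowest in library 8 (22.3 against 35.3 to 40.5 CPM). Among untreated libraries, the S phase mean minus the mitosis mean was -0.29 in library 1 against 1.94 to 2.72. In the bone marrow group, library 13 had the highest Pcna (129 against 106 to 109 CPM) and the lowest Mki67 (46.3 against 143 to 177 CPM), and library 15 was the only one with Ccnd1 counts (0.707 against 0 CPM).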

How the results depend on the processing

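Of 46 calls of named genes, 26 of them among the 55 genes, 19 (12 of the 55 genes') were kept in all alternatives that tested them. The fold changes of these 46 calls kept their sign in all of them. The number of the 55 genes called depended on the test and filter. In MC903 resident against untreated cells it was 7, with 14 without the filter, 13 with DESeq2's Wald test, 13 with limma's voomWithQualityWeights and 4 without libraries 7, 8 and 15; leaving out 1 library gave 5 to 8. In bone marrow against MC903 resident cells it was 2, with 1 under DESeq2 size factors, TMM factors from genes of at least 10 CPM or upper-quartile factors, 6 without the filter, 5 with DESeq2's test, 13 with limma and 1, lower, without libraries 7, 8 and 15; leaving out 1 library gave 1 to 6, with 6 without library 15, 4 without library 3 or 5, and 1 without library 4, 6, 7, 8, 11 or 14. In bone marrow against untreated cells it was 17, with 32 with DESeq2's test and 30 with limma; leaving out 1 library gave 11 (library 11 or 14) to 22 (library 10). The cause of these differences was not tested.

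Over all genes 473, 477 and 1443 were called, with 1072, 1720 and 2757 by DESeq2's test and 1357, 2073 and 2212 by limma. The median difference over all genes, on the log2 scale -0.28 and -0.14 in the comparisons of bone marrow with MC903 resident and with untreated cells, turned to 0.026 and 0.027 when only genes of at least 10 CPM were kept and the TMM factors computed from them. With unfiltered genes it ran from -1.18 to 0.73 over the 3 comparisons. DESeq2 size factors moved it from 0.24 to 0.40 between the resident groups and from -0.28 to -0.43 between the MC903 groups. No paired analysis was possible because the libraries carry 1 running number and share none between groups. Genes at a few counts in a pool of at most 100 cells limit what the mitosis genes can show: up to 5 of 26 were at 3 counts or fewer in a library.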
